A study of Mus musculus with 80 samples.

Results

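The genes described here encode the proteins of the cytosolic ribosome. They were all rows of the 2 deposited RNA-Seq tables whose symbol starts with Rpl or Rps, apart from the S6 kinase genes (Rps6k), Rps19bp1, symbols that mark pseudogenes or related sequences, and Rpl10a. This rule found 81 genes of the 15919 listed for the sort experiment and 80 of the 16000 listed for the inhibitor experiment. Of the 81, 42 encode proteins of the large subunit, 30 proteins of the small subunit and 3 proteins of the stalk (Rplp0, Rplp1 and Rplp2), and 6 are paralogs (Rpl3l, Rpl7l1, Rpl22l1, Rpl36al, Rps27l and Rps4y2, the last typed as a pseudogene in the tables). The inhibitor table did not list Rpl3l, and neither table listed Rpl10l or Rpl39l. The rule left out 16 rows that also start with Rpl or Rps. All 81 genes were tested in Input and, without Rpl3l, 80 were tested in TRAP.

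Every mouse was Cx3cr1(Jung)-cre/Ert2+;NuTRAP+, received tamoxifen at about 3 months, and was dissected at 5 to 8 months. In these mice, cre recombination in Cx3cr1+ cells switches on the NuTRAP allele, which puts eGFP on ribosomal protein L10a. Other Cx3cr1+ macrophages recombine as well, so the tag marks microglia together with such cells. TRAP is the RNA pulled down with the tagged ribosomes, and Input is the lysate before the pulldown. In the sort experiment, both fractions were sequenced from Tissue (homogenized brain without dissociation) and Cell (an enzymatic cell suspension that was not sorted). They were also sequenced from cells sorted on CD11b beads (autoMACS), on beads and then in a Tyto cartridge sorter (autoMACS to Tyto), in the Tyto alone, or in a FACSAria. There were 4 mice per group, except for 3 in autoMACS to Tyto and 5 in Tyto. In the inhibitor experiment, with 4 mice per group, the preparations were Tissue, a suspension made without inhibitors (Cell (-) Inhibitors), one made with actinomycin D, triptolide and anisomycin during the enzymatic step (Cell (+) Inhibitors), and a cold mechanical Dounce suspension. No cells of that experiment were sorted. The Tissue groups of both experiments came from the same mice and are not independent of each other.

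A ribosome carries each of these proteins in about the same amount, and their genes are commonly expressed as a coordinated set. Their mRNAs are short and abundant. Most begin with a stretch of pyrimidines at the cap, the 5′ terminal oligopyrimidine (TOP) motif, through which mTOR signaling controls whether they are loaded onto ribosomes or held in a pool that is not being translated. Because TRAP recovers mRNA bound to tagged ribosomes, the level of an mRNA in TRAP against Input reflects that loading as well as the cells the RNA came from.

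The start sites of these genes carried pyrimidine runs more often than those of other genes. In windows of 15 bases before and 15 after the annotated RefSeq start (GRCm38.p6), a run of at least 8 C or T on the transcribed strand was found for 27 of the 60 members with an entry (45%). Among all 27025 genes of that table it was found for 3760 (13.9%). The runs were searched on the strand of the gene only, as any mixture of C and T, and a run may lie beside the true cap. The following windows show some members that recur below, with any run in capitals. Not printed are Rpl22 and Rplp0, which are not paralogs, have no run and also rose in TRAP with inhibitors. Of those printed, Rpl35 and Rps6 rose in TRAP with inhibitors, Rpl22l1 was a paralog with a run, and Rpl7l1 and Rpl36al were paralogs without one. They lie at chr2:39005117-39005146 (minus strand), chr4:86857353-86857382 (minus), chr3:28805493-28805522 (plus), chr17:46782642-46782671 (minus) and chr12:69184053-69184082 (minus), in that order.
Rpl35: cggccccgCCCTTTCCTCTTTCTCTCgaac
Rps6: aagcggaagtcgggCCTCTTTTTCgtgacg
Rpl22l1: gtgcggcgcaagcccgTTCTCTTCCCacgg
Rpl7l1: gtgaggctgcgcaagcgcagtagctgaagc
Rpl36al: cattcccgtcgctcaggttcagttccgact

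Library depth was 7129464 to 20168116 counts in the sort experiment and 2471448 to 14650287 in the inhibitor experiment. The 4 Dounce-TRAP libraries were the shallowest at 2471448 to 4724538 counts. The summed level of 12 microglial marker genes was 522 to 790 CPM (counts scaled to a common library size) in Tissue-Input and 12030 to 14258 in Tissue-TRAP, 8828 to 10716 in Cell-Input and 46884 to 50444 in Cell-TRAP. It was 34802 to 53486 in the sorted Inputs and 51664 to 58914 in the sorted TRAP libraries. The summed level of 10 neuronal markers was 8042 to 9158 in Tissue-TRAP, close to the 9754 to 10164 of Tissue-Input, against 4 to 10 in sorted TRAP. Tissue-TRAP therefore still held much neuronal RNA. In these bulk samples, fewer cells of a type and less RNA per cell cannot be told apart. Many ribosomal protein genes have near-identical processed pseudogenes, among which reads may be split, so the level of any 1 member is uncertain to that extent.

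Ribosomal protein mRNA took up more of the Input than of the TRAP library in the enzymatic suspensions, sorted or not, while the fractions overlapped in Tissue and in Dounce. The share of all counts that fell on these genes was 1.77% ± 0.106 (SD, n = 4) in Tissue-Input and 1.81% ± 0.0956 in Tissue-TRAP. In Cell it was 2.02% ± 0.196 in Input and 1.04% ± 0.0373 in TRAP. The sorted Inputs held the highest shares, at 2.94% ± 0.275 for autoMACS, 2.81% ± 0.285 for autoMACS to Tyto (n = 3), 2.53% ± 0.216 for Tyto (n = 5) and 2.24% ± 0.126 for FACSAria. The corresponding TRAP shares were 1.46% ± 0.132, 1.19% ± 0.108, 1.25% ± 0.0576 and 1.19% ± 0.0881. Within mice, the TRAP share divided by the Input share had a median of 0.533 in Cell, 0.486 in autoMACS, 0.422 in autoMACS to Tyto, 0.473 in Tyto and 0.515 in FACSAria, and was below 1 in every mouse of those groups. In Tissue the median was 1.02, with 1 of 4 mice below 1. In the inhibitor experiment the median was 0.489 for Cell (-) Inhibitors and 0.652 for Cell (+) Inhibitors, below 1 in 4 of 4 mice each. There the Tissue median was 1.05, with 1 of 4 mice below 1, and the Dounce median was 0.957, with 3 of 4 below 1.

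**Figure D1:**
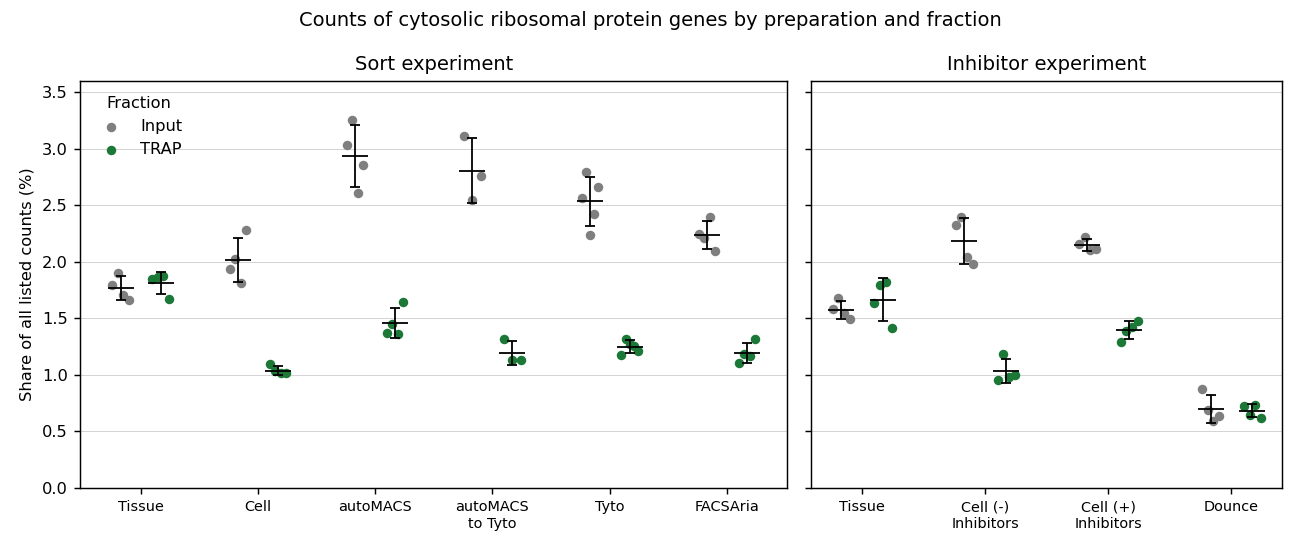
Share of all listed counts (%) that fell on cytosolic ribosomal protein genes, for each library (points), with the group mean and SD (black), by preparation on the horizontal axis and fraction (grey Input, green TRAP). In the enzymatic suspensions and the sorts every TRAP library lies below the Input libraries of its own preparation, with Cell-Input at 2.02% and Cell-TRAP at 1.04% on average, while the Tissue fractions overlap, as do those of Dounce, which lie below 1%.

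The members differed widely in level. Levels were scaled to the length of the annotated transcript with the longest coding sequence. Per kilobase of transcript, Rplp1 stood highest in Tissue-Input, at a mean of 552 normalized CPM per kilobase. It also stood highest in FACSAria-Input at 1021 and in Tissue-TRAP at 502. Rplp1 is an acidic stalk protein that helps recruit the elongation factors. Rpl7, a protein of the large subunit, stood highest in Cell-TRAP at 377. The lowest members were Rpl3l, the muscle paralog of Rpl3, and then Rps15a, Rpl22l1, Rps20, Rps27l and Rpl7l1. The low places of Rps15a and Rps20 depend on the transcripts used. These had 5179 and 3706 bases, with coding lengths of 390 and 357. Rpl3l did not exceed 0.649 normalized CPM in any library and was at 0 in many, so no fold change is given for it, although it is one of the 81 genes counted.

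In all 4 sorts nearly every member was lower in TRAP than in Input of the same sorted samples. The fit was edgeR's quasi-likelihood test over all libraries of the experiment, in which a member counts as higher or lower once its FDR (Benjamini-Hochberg) is below 0.1, and a second, narrower count also asks for a change above 2-fold. Fits with mouse as a replicate block, named below, held only the libraries of the groups compared. Backgrounds belong to the main fit, and counts under alternative fits are given without one. The median member was 2.18-fold lower in autoMACS, 2.44-fold in autoMACS to Tyto, 2.17-fold in Tyto and 1.96-fold in FACSAria. In autoMACS, 79 of 81 members were lower (30.9% of all 15825 genes tested were called lower), 48 of them above 2-fold (background 17.4%). In autoMACS to Tyto, 78 were lower (background 14.1%) and 63 above 2-fold (background 5.25%). In Tyto, 78 were lower (background 32.3%) and 48 above 2-fold (background 16.9%), and in FACSAria, 78 were lower (background 20.5%) and 31 above 2-fold (background 10.2%). All 42 large-subunit genes, all 30 small-subunit genes and all 3 stalk genes were among the lower ones in each sort. The medians of the subunits were alike, at -1.04 (log2) for the large and -1.16 for the small subunit in autoMACS, and -0.92 and -0.98 in FACSAria. The median over all genes tested was -0.20 in autoMACS, -0.08 in autoMACS to Tyto, -0.18 in Tyto and -0.12 in FACSAria. A sorted Input may also hold RNA of cells without the tag. The microglial marker sum was 34802 to 48952 CPM in autoMACS-Input and 54715 to 56026 in autoMACS-TRAP. In FACSAria it was 49111 to 50604 in Input and 51664 to 55876 in TRAP. The part of cells without the tag in the result was not tested.

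Rpl32, a protein of the large subunit (chr6:115805514-115808743, minus strand, mm10), carried the lowest or nearly the lowest value in each sort. Its FACSAria-Input libraries stood at 201, 205, 205 and 180 normalized CPM and its FACSAria-TRAP libraries at 62.5, 75.7, 76.8 and 79.6. The fractions did not overlap, and the log2 fold change was -1.43 ± 0.11 (SE; edgeR FDR = 8.3e-13). In Tyto the Input libraries of Rpl32 stood at 255, 258, 209, 239 and 251 and the TRAP libraries at 67.1, 77.2, 75.8, 76.4 and 64.9, a log2 fold change of -1.75 ± 0.10 (edgeR FDR = 5.1e-17). Rplp0, the scaffold of the stalk (chr5:115559467-115563729, plus strand), stood at 610, 579, 646 and 591 in FACSAria-Input and at 256, 236, 233 and 306 in FACSAria-TRAP (log2 fold change -1.23 ± 0.11, edgeR FDR = 7.4e-12). Again no TRAP library reached the Input range. Rps6, the small-subunit protein that S6 kinase phosphorylates, fell by 1.13 on the log2 scale in FACSAria and by 1.31 in Tyto. The smallest decreases outside the paralogs included Rpl7 (chr1:16101296-16104433, minus strand), with -0.44 ± 0.08 in FACSAria and -0.47 ± 0.07 in Tyto.

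The members that did not fall in the sorts were paralogs. Rpl7l1, a paralog of Rpl7 at chr17:46773907-46782656 (minus strand), was 0.34 ± 0.09 higher (log2) in TRAP of autoMACS (edgeR FDR = 0.0038, and 0.12 with mouse as a replicate block), 0.28 ± 0.08 higher in Tyto (FDR = 0.0069) and 0.24 ± 0.09 higher in FACSAria (FDR = 0.057). In autoMACS to Tyto its log2 fold change was 0.20 ± 0.11 (FDR = 0.20). Rps4y2 was higher in TRAP of autoMACS (0.47 ± 0.19, FDR = 0.049), Tyto (0.58 ± 0.17, FDR = 0.0053) and FACSAria (0.44 ± 0.19, FDR = 0.083), and stood at 0.44 ± 0.22 in autoMACS to Tyto (FDR = 0.17). The other paralogs went with the main set. Rps27l, a p53-inducible paralog of Rps27, fell by 1.77 in autoMACS to Tyto, Rpl22l1 fell by 1.31 in Tyto and Rpl36al fell by 0.49 in Tyto.

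**Figure D2:**
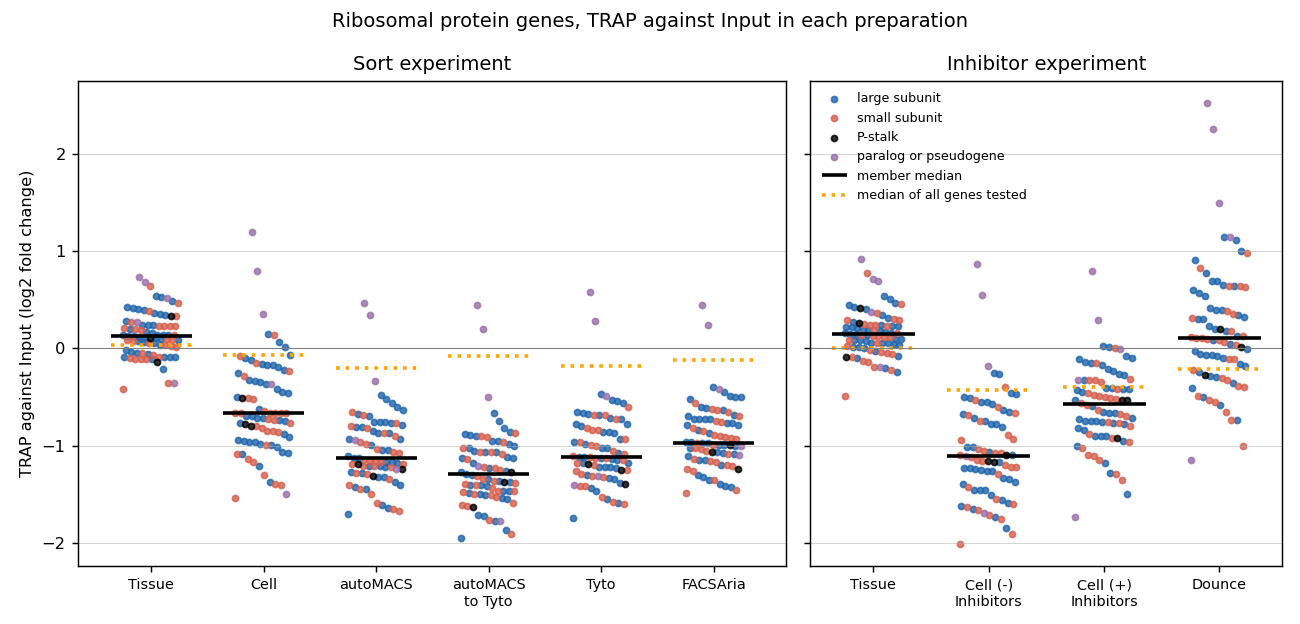
TRAP against Input (log2 fold change) of each ribosomal protein gene (points, colored by role) in each preparation, with the member median (black line) and the median of all genes tested (orange dotted line). Rpl3l is not drawn. The points of the enzymatic suspensions and the sorts lie mostly below 0, with the member median at -0.97 in FACSAria and -1.29 in autoMACS to Tyto, those of Tissue and Dounce lie on both sides of 0, and the few points above 0 in the sorts are paralogs.

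In the unsorted Cell suspension the members were also lower in TRAP, by a median of 1.59-fold. There 69 of 81 were lower (background 40.7%), 14 of them above 2-fold (background 30.9%), and 3 were higher. Since Cell-Input is a mixture of all brain cells and Cell-TRAP is mostly microglial RNA by its markers, this comparison mixes cell types and fractions, which cannot be told apart here. Rps20, a small-subunit protein (chr4:3834473-3835600, minus strand), stood at 104, 118, 104 and 136 normalized CPM in Cell-Input and at 40.6, 39.6, 40.9 and 38.7 in Cell-TRAP. The groups were far apart, with a log2 fold change of -1.53 ± 0.12 (edgeR FDR = 9.2e-15). Rpl39, which lines the exit tunnel of the ribosome, fell by 1.37, and Rps27 fell by 1.09. Rpl7l1 went the other way, from 54.7, 56, 60.1 and 53 in Cell-Input to 117, 132, 133 and 130 in Cell-TRAP (1.19 ± 0.09, edgeR FDR = 8.1e-15). Rps4y2 and Rpl36al were the other higher members, at 0.79 ± 0.19 and 0.35 ± 0.09, but Rpl36al stood at -0.06 with DESeq2 size factors. The 9 members that passed in neither direction were Rpl7, Rpl5, Rps9, Rpl18, Rps3, Rpl4, Rpl19, Rpl3l and Rpl10. The median of the members lay 0.60 below that of all genes on the log2 scale, while the count above 2-fold was under the background. That count depended on the normalization, with 48 members above 2-fold under DESeq2 size factors, which also put the median of all genes at -0.48.

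In Tissue the members as a set were not lower in TRAP. The median was 0.12 (log2) in the sort experiment, against 0.03 over all genes, with 27 of 81 members higher and 2 lower (background 32.6% called in either direction) and none above 2-fold. By edgeR, 35 members had an unadjusted p under 0.05, as did 5627 of all 15825 genes. In the inhibitor experiment, which used the same mice, the median was 0.15, with 18 of 80 higher and 1 lower (background 27.4%), and 41 were called with mouse as a replicate block. Rpl32 stood at 87.1, 88.9, 76.5 and 79.6 in Tissue-Input and at 94.1, 100, 92.7 and 78.9 in Tissue-TRAP of the sort experiment, with overlapping groups (0.14 ± 0.11, edgeR FDR = 0.39). Rps20 overlapped as well, at 80.4, 84.0, 75.9 and 75.8 in Input and 80.8, 58.1, 88.1 and 66.2 in TRAP. The highest values were those of Rps27l (0.73 ± 0.13, FDR = 7.6e-06) and Rpl7l1 (0.68 ± 0.09, FDR = 9.0e-08). Neuronal markers were near their Input level in Tissue-TRAP (ranges above), and their part in this result was not tested.

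The difference between Cell and Tissue was tested as an interaction of fraction and preparation, on the same mice. TRAP against Input was lower in Cell than in Tissue for 76 of 81 members (background 38.9%) and higher for 1, Rpl7l1 (0.51 ± 0.13, edgeR FDR = 0.0011, and 0.23 with DESeq2 size factors). The member median was -0.80 (log2), against -0.29 over all genes. Rps20 (-1.42 ± 0.17), Rpl32 (-1.34 ± 0.15) and Rpl39 (-1.33 ± 0.17) had the lowest values. The neuronal marker sum was 8042 to 9158 CPM in Tissue-TRAP and 127 to 359 in Cell-TRAP. The summed level of 8 astrocyte markers was 5090 to 6952 in Tissue-TRAP and 1888 to 2142 in Cell-TRAP. Cell type and preparation therefore cannot be told apart in this interaction. When the mean of the 4 sorts was set against Cell, 65 members had a lower TRAP against Input in the sorts (background 41.5%), with a median of -0.45 against -0.26 over all genes. That median came to about 0 under other normalizations, and the difference of the members from all genes ranged from -0.26 to -0.01, so no direction is read from it. With mouse as a replicate block, 40 members passed.

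**Figure D3:**
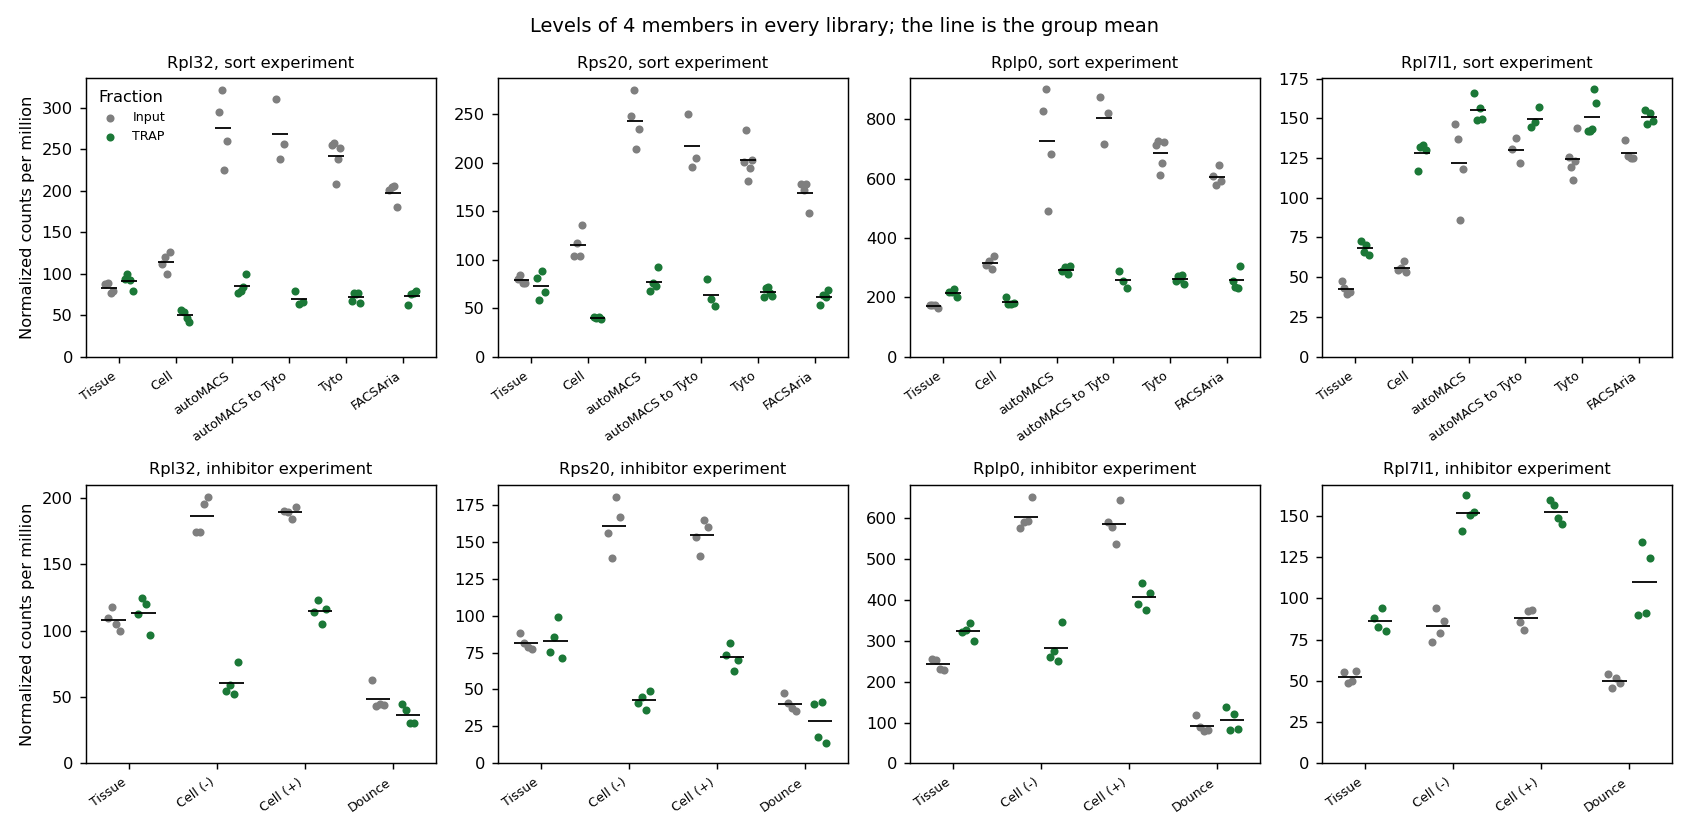
Levels of Rpl32, Rps20, Rplp0 and Rpl7l1 (normalized CPM) in every library (points) by preparation and fraction (grey Input, green TRAP), with the group mean as a line, in the sort experiment (top) and the inhibitor experiment (bottom). The first 3 genes have Input far above TRAP in Cell and in the sorts, such as Rps20 in Cell at means of 116 and 40, while Rpl7l1 has TRAP above Input, at means of 128 and 55.9 in Cell.

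Among Inputs, sorting went with more ribosomal protein mRNA. Against Cell-Input, 77 of 81 members were higher in the mean of the sorted Inputs (background 39.6%) and none was lower, with a median of 0.67 (log2) against -0.09 over all genes. Members above 2-fold numbered 3 (background 17.1%): Rpl12 at the base of the stalk (1.16 ± 0.10), Rps9 (1.12) and Rps4x (1.08), and none with DESeq2 size factors. The 3 stalk genes rose together, Rplp2 by 0.96, Rplp0 by 0.92 and Rplp1 by 0.89. Rplp0 stood at 310, 321, 296 and 339 normalized CPM in Cell-Input and at 175, 174, 175 and 163 in Tissue-Input, both below every FACSAria-Input library. Rps27l, Rpl22l1 and Rpl38 were not called (0.09 ± 0.09, -0.18 ± 0.11 and 0.13 ± 0.08). Cell-Input against Tissue-Input gave a mixed picture, with 40 members higher and 6 lower (background 75.1% in either direction) and a median of 0.21 against 0.17 over all genes. Rps27l (1.16 ± 0.12) and Rplp0 (0.98 ± 0.14) had the highest values there, and Rpl22l1 (-0.56 ± 0.14) and Rps15a (-0.44 ± 0.12) the lowest apart from Rpl3l. In the inhibitor experiment, whose suspensions came from other mice than its Tissue, 60 of 80 members were higher and 2 lower in Cell (-) Inhibitors-Input against Tissue-Input (background 76.8% in either direction), and 2 of those that were higher passed 2-fold (Rps27l at 1.19 ± 0.18 and Rplp0 at 1.18 ± 0.12, background 25.6%). All these Inputs differ in their cell types, and the microglial markers rose along with the members from Tissue-Input to the sorts. Their part in the result was not tested.

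Among the TRAP libraries of the sort experiment the order was different, with the members lowest in Cell-TRAP. Compared with Tissue-TRAP, 72 of 80 members were lower in Cell-TRAP (background 41.9%), 7 of them above 2-fold (background 29.3%), and the median was -0.57 (log2) against -0.01 over all genes. The 7 were Rpl22l1 (-1.77 ± 0.20), Rps15a (-1.65 ± 0.10), Rpl38 (-1.36 ± 0.11), Rps24, Rpl24, Rps28 and Rps25, and 13 members passed 2-fold with mouse as a replicate block and 32 with DESeq2 size factors. Rps15a, a small-subunit protein, stood at 116, 87.5, 113 and 114 normalized CPM in Tissue-TRAP and at 39.7, 27.9, 36.1 and 31.8 in Cell-TRAP, without overlap. Rpl7l1 was the only member higher (0.92 ± 0.06, edgeR FDR = 1.9e-12). The Cell (-) Inhibitors suspension, from other mice, gave 69 of 80 lower against Tissue-TRAP (background 41.9%), 12 of them above 2-fold (background 30.8%), with Rpl22l1, Rps15a and Rpl38 again the lowest at -2.01 ± 0.26, -1.71 ± 0.15 and -1.52 ± 0.14. From Cell-TRAP to the mean of the sorted TRAP groups, 75 of 80 members rose (background 23.2%) and 1 fell, with a median of 0.40 against -0.05 over all genes. Rpl39 rose most (0.99 ± 0.11), and the member that fell was Rps27l (-0.62 ± 0.10). In TRAP, as in Input, the preparations also differed in cell type markers, and the part of these in the result was not tested.

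The 4 sorts differed among themselves in many members. An F test across them called 54 of 81 in Input (background 16.9%) and 52 of 80 in TRAP (background 28.8%). The TRAP count was 28 without autoMACS replicate 73, the library with the highest share in its group, and 62 at most when other libraries were left out. Rplp1 was called in both fractions (edgeR FDR = 0.0061 in Input and 0.0010 in TRAP). It stood at 784, 818, 782 and 724 normalized CPM in autoMACS-Input and at 538, 507, 534 and 459 in FACSAria-Input, without overlap. In TRAP it stood at 295, 337, 306 and 376 in autoMACS and at 225, 244, 238 and 271 in FACSAria. Rplp0 (FDR = 0.19 in Input and 0.17 in TRAP) and Rpl7l1 (0.83 and 0.87) were not called. Rps27l differed most firmly in TRAP (FDR = 3.4e-05), with 14.5, 15.7, 14.3 and 19.3 in autoMACS against 8.35, 7.33 and 7.48 in autoMACS to Tyto. The F test took no account of mice shared between sorts. In the 3 mice sorted by both Tyto and FACSAria, the share of counts on the members was higher in Tyto for Input (2.56% against 2.25%, 2.42% against 2.21% and 2.66% against 2.40%) and for TRAP (1.17% against 1.11%, 1.25% against 1.18% and 1.21% against 1.17%). In the 3 mice of both autoMACS and autoMACS to Tyto, it was higher in autoMACS for TRAP in every mouse (1.37% against 1.31%, 1.45% against 1.13% and 1.64% against 1.13%) and for Input in 2 of 3. No mouse links these 2 pairs of sorts, so between the pairs the sort method and the animal cannot be told apart.

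With transcription and translation inhibitors during dissociation, ribosomal protein mRNA was higher in TRAP and not detectably different in Input. In TRAP, 34 of 80 members were higher in Cell (+) Inhibitors than in Cell (-) Inhibitors (background 1.09%, or 160 of 14723 genes, 34 of which were therefore members) and none was lower. The median was 0.46 (log2) against -0.03 over all genes, 79 of 80 values were positive, and none passed 2-fold. By edgeR, 66 members had an unadjusted p under 0.05. The 34 were 20 large-subunit genes, 11 small-subunit genes, 2 stalk genes and 1 paralog. In Input, edgeR called none of the 80 (background 0.381%, or 60 genes), the median was -0.05, and none had an unadjusted p under 0.05. The DESeq2 Wald test also called 0 members in Input. Input of these suspensions was a mixture of brain cells, with a microglial marker sum of 9509 to 14599 CPM without and 11828 to 17123 with inhibitors. A difference confined to microglia would therefore be smaller in Input, so cell type and fraction cannot be told apart in this contrast. The share of counts in TRAP of the same mouse was 1.17 to 1.48 times as high with inhibitors (median 1.4, higher in 4 of 4), and in Input 0.927 to 1.07 times (median 0.980, higher in 2 of 4). Both suspensions came from the same 4 mice. With mouse as a replicate block, 71 members were higher and 1 was lower in TRAP. Fitting only the groups compared, without the block, also raised the count. With the Dounce libraries left out of the fit 58 passed. The backgrounds above belong to the main fit and not to these fits. The main count of 34 fell to 14 without Cell (-) Inhibitors-TRAP replicate 1361 and to 17 without replicate 156 of either TRAP group. It fell to 15 without Cell (+) Inhibitors-TRAP replicate 157.

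Rpl32 changed most. It stood at 54.7, 58.8, 52.5 and 76.7 normalized CPM in Cell (-) Inhibitors-TRAP and at 114, 123, 105 and 116 in Cell (+) Inhibitors-TRAP. Its Inputs were at 174, 174, 195 and 201 without and at 190, 189, 184 and 193 with inhibitors. The TRAP groups did not overlap and the Input groups did, and the log2 fold change in TRAP was 0.93 ± 0.14 (edgeR FDR = 0.00056). Rpl35, which sits by the mouth of the exit tunnel and has the long pyrimidine run printed above, stood at 43.7, 44.1, 44.5 and 57.1 without and at 85.6, 88.7, 74.4 and 87.9 with inhibitors in TRAP (0.84 ± 0.16, edgeR FDR = 0.0077). Rps6 stood at 152, 147, 143 and 197 without and at 239, 233, 210 and 226 with inhibitors in TRAP (0.52 ± 0.12, edgeR FDR = 0.028). Neither gene overlapped between the groups, and in both the highest library without inhibitors was from the same mouse. Other members that passed were Rps15a (0.79 ± 0.15, FDR = 0.0064), Rpl22 (0.56 ± 0.10, FDR = 0.0038), Rplp2 (0.55 ± 0.13, FDR = 0.029), Rplp0 (0.53 ± 0.14, FDR = 0.076) and Rpl3 at the peptidyl transferase center (0.38 ± 0.10, FDR = 0.074). Rps20 stood at 40.8, 45, 35.8 and 49.2 without and at 73.2, 81.2, 62.7 and 69.6 with inhibitors in TRAP. These groups did not overlap, yet the gene did not pass (0.76 ± 0.23, edgeR FDR = 0.17), whereas with mouse as a replicate block it did (0.77, FDR = 3.1e-05).

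Other members had values nearer 0 and were not called. Rpl7 had a log2 fold change of 0.13 ± 0.10 in TRAP with inhibitors (edgeR FDR = 0.86), Rplp1 of 0.15 ± 0.12 (FDR = 0.89), Rpsa, also known as the laminin receptor, of 0.15 ± 0.12 (FDR = 0.87) and Rpl41 of 0.11 ± 0.17 (FDR = 0.97). Among the paralogs Rps27l was called (0.85 ± 0.23, FDR = 0.093), with 14.8, 16.2, 14.1 and 13.1 without and 27.8, 28.8, 23.2 and 24.3 with inhibitors in TRAP. It missed the threshold with DESeq2 size factors, and without Cell (-) Inhibitors-TRAP replicate 1361 it did not pass either, nor did Rps6, Rplp2, Rplp0 and Rpl3. Rpl7l1 (0.02 ± 0.12), Rpl22l1 (0.12 ± 0.26), Rpl36al (0.13 ± 0.13) and Rps4y2 (-0.26 ± 0.27) were not called. With mouse as a replicate block, Rps4y2 was the member called lower (FDR = 0.0996), and the others named here as not called stayed so, as did Rpl5. The microglial marker sum was 50933 to 57388 in Cell (-) Inhibitors-TRAP and 56884 to 59097 in Cell (+) Inhibitors-TRAP, and the part of this shift in the result was not tested.

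**Figure D4:**
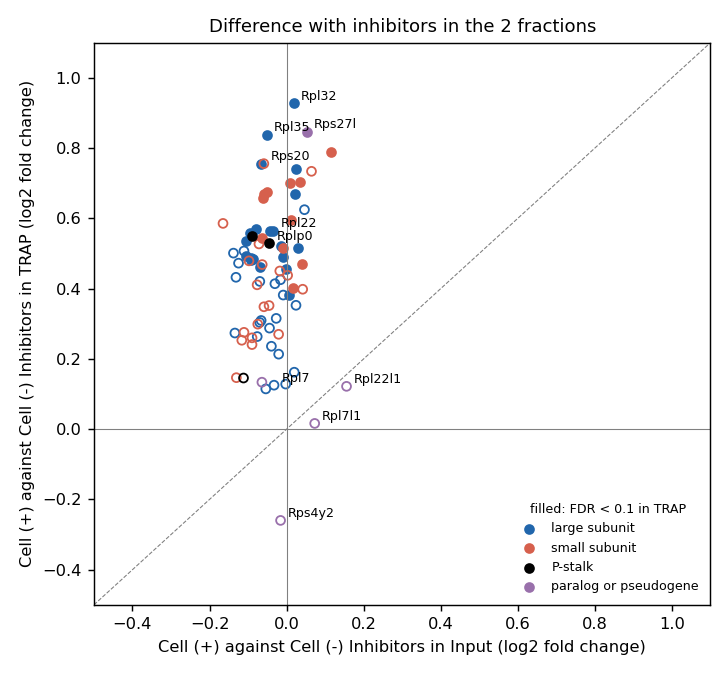
Difference of Cell (+) from Cell (-) Inhibitors (log2 fold change) in Input (horizontal) and in TRAP (vertical) for each of the 80 members, colored by role and filled where the FDR in TRAP was under 0.1. The dashed line marks equal differences. The points form a column near 0 in Input that reaches up to 0.93 (Rpl32) in TRAP, with Rps4y2 at -0.26 as the only one below 0.

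The test of the difference between fractions was less sensitive. TRAP against Input was higher with inhibitors than without for 3 members (Rpl32 at 0.90 ± 0.18, edgeR FDR = 0.015; Rpl22 at 0.59 ± 0.13, FDR = 0.056; Rpl35 at 0.88 ± 0.20, FDR = 0.063), where 9 of 15894 genes were called (background 0.0566%). The median was 0.48 against -0.04 over all genes, 77 of 80 values were positive and 56 had an unadjusted p under 0.05. With mouse as a replicate block 36 members passed, and with DESeq2 22 passed. The background of 0.0566% belongs to the main fit and not to these 2 fits. Leaving out single libraries gave 1 (without Cell (-) Inhibitors-Input replicate 1361, for example) to 13 (without Cell (-) Inhibitors-TRAP replicate 1362). In both arms Input was a mixture of brain cells and TRAP was mostly microglial RNA by its markers. Cell type and fraction cannot be told apart here either. Each arm still had members lower in TRAP than in Input. Without inhibitors 77 of 80 were lower (background 48.8%), 51 of them above 2-fold (background 36.7%), with a median 2.16-fold lower. With inhibitors 66 were lower (background 47.6%), 11 of them above 2-fold (background 35.8%), with a median 1.48-fold lower. With mouse as a replicate block the counts above 2-fold were 24 and 4. The median over all genes was itself -0.42 without and -0.39 with inhibitors. Relative to it the members were at -0.69 without and at -0.18 with inhibitors, and at -1.10 and -0.56 when every library had to hold at least 10 counts of a gene. For Rplp0 the log2 fold change of TRAP against Input was -1.09 ± 0.13 without and -0.53 ± 0.13 with inhibitors, and for Rpl10 it was -0.57 ± 0.11 and 0.02 ± 0.11.

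Members that were furthest below their Input in sorted cells tended to be those with the larger difference with inhibitors. Both values come from different libraries and different mice. Over 80 members, Spearman's rho between TRAP against Input in the sort experiment and the difference with inhibitors in TRAP was -0.63 for Tyto, -0.61 for FACSAria, -0.59 for autoMACS and -0.46 for Cell, and -0.06 for Tissue. Pearson's r was -0.72, -0.70, -0.69, -0.54 and -0.12 in that order. Without the paralogs (75 genes) rho was -0.61 for Tyto and -0.60 for FACSAria. These are descriptions over genes, which are not independent replicates and share their length and level in both experiments. Coding length had a rho of 0.46 (80 genes) with TRAP against Input in FACSAria and of -0.25 (79 genes) with the difference with inhibitors. The mean level had a rho of 0.53 (75 genes without the paralogs) with the former and of -0.51 with the latter. TRAP against Input without inhibitors had a rho of 0.95 over 80 members with Cell of the sort experiment, which came from other mice. Rpl32, Rpl35 and Rps20 were in the lower end of the sorts and the upper end with inhibitors, and Rpl7 and Rpl36al were in the opposite ends.

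**Figure D5:**
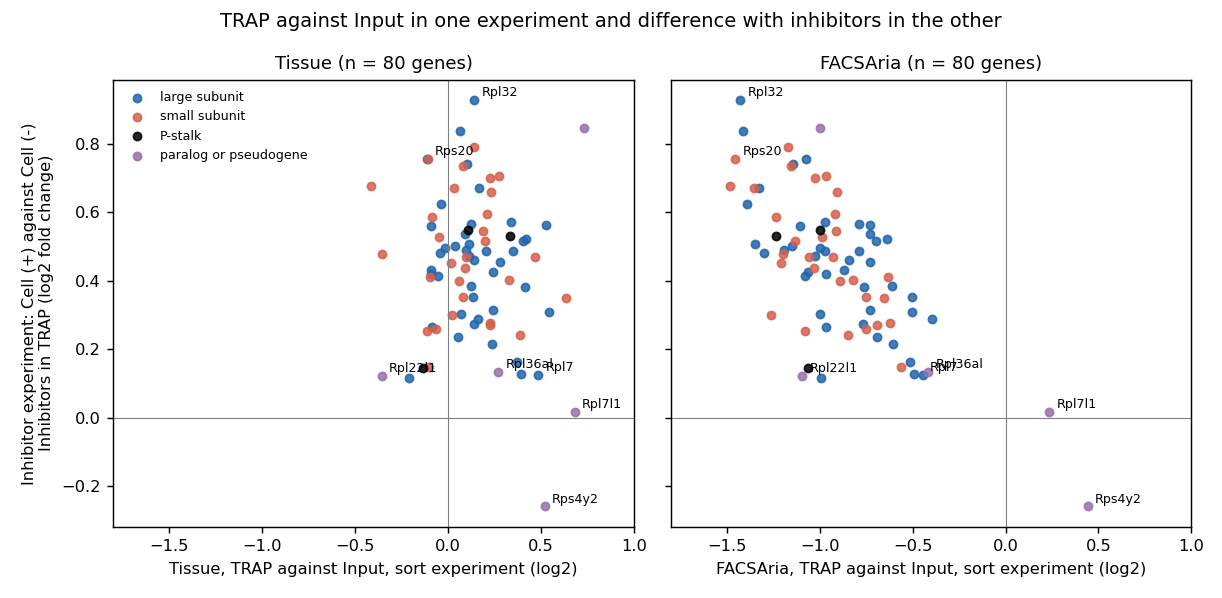
TRAP against Input in the sort experiment (log2, horizontal; Tissue left, FACSAria right) and difference of Cell (+) from Cell (-) Inhibitors in TRAP of the inhibitor experiment (log2, vertical) for 80 members, colored by role. In FACSAria the points run from Rpl32 at upper left (-1.43 and 0.93) to Rpl7l1 and Rps4y2 at lower right, with a rho of -0.61, and in Tissue they show no such slope, with a rho of -0.06.

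The Dounce preparation had the least ribosomal protein mRNA. Its share of counts was 0.698% ± 0.126 in Input and 0.681% ± 0.0560 in TRAP (n = 4 each). Against Tissue, 79 of 80 members were lower in Input (background 36.6%), 58 of them above 2-fold (background 21.4%). In TRAP 78 were lower (background 5737 of 14723 genes lower), 65 of them above 2-fold (background 27.1%). The medians were -1.17 and -1.39 against 0.10 and -0.06 over all genes. Rplp0 stood at 119, 88.5, 80.4 and 82 normalized CPM in Dounce-Input against 255, 253, 232 and 230 in Tissue-Input. Rpl7l1 was the member not called lower in Input (0.14 ± 0.10, edgeR FDR = 0.22) and was higher in TRAP (0.41 ± 0.12, FDR = 0.0052). TRAP against Input in Dounce went both ways, with 31 members higher and 16 lower (background 73.3% in either direction). The members above 2-fold higher were Rps4y2 (2.52 ± 0.29), Rps27l (2.26 ± 0.24), Rpl36al (1.50 ± 0.14), Rpl7 (1.15 ± 0.12), Rpl7l1 (1.14 ± 0.11) and Rpl7a, and Rpl22l1 was above 2-fold lower (-1.14 ± 0.25). Rps27l stood at 8.01, 5.39, 5.78 and 5.37 in Dounce-Input and at 19.8, 19.4, 50.9 and 30.6 in Dounce-TRAP. The member median of 0.11 changed sign with other normalizations, so no direction is given for the set. The Dounce mice, depth and markers all differed from those of Tissue, with a microglial marker sum of 2662 to 4033 in Input and 51576 to 56110 in TRAP. The summed level of the 6 measured blood markers, hemoglobin genes among them, was 11922 to 14121 CPM in Dounce-Input against 128 to 231 in Tissue-Input. The paper also reports lower RNA integrity in Dounce-Input than in Tissue-Input, which was not measured here. It further reports that coverage leaned more toward the downstream end of genes in Tissue and Dounce than in the Cell suspensions. That held for both fractions of the inhibitor experiment and was not measured here either. These differences cannot be told apart from the preparation.

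Rpl10a, whose protein carries the tag and which the rule left out, was higher in TRAP than in Input in Tissue and in the unsorted suspensions. It stood at 111 ± 7.19 (SD, n = 4) normalized CPM in Tissue-Input and 207 ± 10.8 in Tissue-TRAP, and at 136 ± 6.69 in Cell-Input and 230 ± 12.2 in Cell-TRAP. The log2 fold change of TRAP against Input was 0.90 in Tissue and 0.76 in Cell, between -0.16 and -0.47 in the sorts, where it went the way of the members, and 0.54 without and 0.81 with inhibitors. In Input it was 1.33 ± 0.07 higher in the sorts than in Cell. The NuTRAP allele encodes a tagged L10a, and whether reads of that allele were counted as Rpl10a was not tested. These values may therefore not be those of the endogenous gene alone.

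Other gene groups of translation and energy metabolism were set beside the members without a test of the difference. In the sorts, 15 to 17 of 18 other genes whose mRNAs carry a TOP motif were lower in TRAP (background 14.1% to 32.3%). Their medians were -0.54 to -0.82. The 18 genes include the elongation factors Eef1a1 and Eef2 and the poly(A) binding protein Pabpc1. The 76 mitochondrial ribosomal protein genes had medians of -0.08 to -0.22, the 78 genes for subunits of oxidative phosphorylation medians of -0.15 to -0.40, and the 20 genes of ribosome biogenesis medians of 0.10 to 0.31. In the unsorted suspensions the oxidative phosphorylation genes were as far below Input as the members or farther. Their median was -0.78 in Cell (70 of 78 lower, background 40.7%). It was -1.31 in Cell (-) Inhibitors (74 lower, background 48.8%) and -1.03 in Cell (+) Inhibitors (74 lower, background 47.6%). The TOP genes had medians of -0.26, -0.55 and -0.31 in these 3 suspensions. From Tissue-TRAP to Cell-TRAP the oxidative phosphorylation genes had a median of -1.44. Of these genes, 75 of 77 were lower (background 41.9%), 64 of them above 2-fold (background 29.3%). The mitochondrial ribosomal protein genes had a median of -0.67. With inhibitors in TRAP, 3 of the 18 TOP genes were higher by edgeR (background 1.09%), with a median of 0.23 and 17 of 18 values positive. So were 2 of 77 oxidative phosphorylation genes (median 0.16). None of the mitochondrial ribosomal protein, ribosome biogenesis or mTOR pathway genes was higher (medians 0.04, -0.10 and 0.03). In Input no gene of these lists was called.

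The medians of members with and without a pyrimidine run at the annotated start were close to each other. Among members other than paralogs, the 25 with a run had a median TRAP against Input of -1.15 in Tyto and -0.75 in Cell, and the 30 without one medians of -1.09 and -0.67. Their median difference with inhibitors in TRAP was 0.49 with and 0.47 without a run. Annotated starts can lie some bases from the true cap, so a missing run says only that these windows hold none.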

How the data were processed

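RNA-Seq of Input and TRAP was analyzed in 80 libraries of 20 groups, mapped to groups by their labels. The authors aligned reads of directional libraries to mm10 in Strand NGS, removed duplicates and kept transcripts with more than 5 reads in all samples of at least 1 group. They deposited raw columns of expected counts, which need not be whole, beside columns of their own log2 values and comparisons, which were not used. The submitters' processing notes also name DESeq2. Ribosomal protein genes and gene lists were chosen with earlier results of these data known. The named genes were members fixed by role (stalk, paralogs and well-known proteins of each subunit) and the 3 lowest and 3 highest in each comparison. Other members are named only to complete a short count and were chosen after their values were seen.

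Counts were rounded and tested with edgeR 4.0.16 (quasi-likelihood, TMM normalization, R 4.3.3) on genes with more than 5 counts in every library of at least 1 group. P-values were adjusted over all genes tested (FDR threshold 0.1, second threshold 2-fold). Preparations were compared within a fraction, and fractions and interactions over all libraries of an experiment. "Sort" is the mean of the 4 sorts with equal weights. Levels are TMM-normalized CPM (counts scaled to a common library size), and shares are percentages of all listed counts, computed here. SE was taken as the log2 fold change over the root of the F statistic. The procedure was tested on simulated counts. Precision is limited by the number of mice and by depth, which was lowest in Dounce-TRAP. Mouse numbers pair the samples because Input and TRAP came from the same mouse. The correlation of same-mouse deviations was -0.20 to 0.50 over 40 pairs. No 2 libraries of a group agreed within sampling noise.

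Alternatives were DESeq2 size factors, the DESeq2 1.42.0 Wald test, normalization on other genes, a stricter filter of 10 counts and no further filter. Others were only the groups compared, mouse as a replicate block, and each library left out. The fits with mouse as a block also held only the groups compared. Fits without the Dounce libraries and without the paralogs were added after seeing the data. Start windows were read from RefSeq.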

Additional observations from a re-analysis of the deposited data

Results flagged for a closer look

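The values examined formed 162 sets, each the share or the level of 1 gene over the 4 or 5 libraries of a group. In 9 sets a library lay farther from its group than a gap test at the 95% level allows. Chance gives about 1 in 20 sets, but the sets reuse the same libraries and are not independent. The lowest Tissue-TRAP share in the sort experiment was 1.67%, with the next at 1.84% and the highest at 1.87%. The other values are normalized CPM. Rplp0 was lowest at 163 in a Tissue-Input library, with the others from 174 to 175, and highest at 201 in a Cell-TRAP library, with the next at 180. Rps27l was highest at 18.1 in a Tissue-TRAP library of the sort experiment, with the next at 15.6, and at 8.01 in a Dounce-Input library, with the next at 5.78. The same kind of gap set Rpl32 at 62.8 in a Dounce-Input library, with the next at 45. Rpl7l1 was lowest at 117 in a Cell-TRAP library, with the next at 130, and highest at 136 in a FACSAria-Input library, with the next at 126. Rpl10a was highest at 428 in a Tyto-Input library, with the next at 391.

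The difference of TRAP against Input between preparations passed an FDR of 0.1 in edgeR's interaction test for 77 members between Cell and Tissue, for 65 members between the sorts and Cell, and for 3 members between the suspensions with and without inhibitors. Their values are given in the report. The share of members called between the sorts and Cell changed with the normalization.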

How the results depend on the processing

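Values here are medians of the members (log2) unless a count is named, in the order DESeq2 size factors, at least 10 counts in every library, and DESeq2 Wald test. The scalings moved the median of all genes too, for example to -0.48 for TRAP against Input in Cell under size factors, so the medians are best read against it. Input of Sort against Cell came to 0.46, 0.35 and 0.46, TRAP of Cell against Tissue to -0.90, -0.93 and -0.90, TRAP against Input in Cell to -1.08, -1.14 and -1.08, and the interaction of Cell against Tissue to -1.12, -1.14 and -1.12. The interaction of Sort against Cell came to 0.000647, 0.0333 and 0.000661, opposite in sign, and to -0.19 both with only the groups compared and with mouse as a replicate block. TRAP against Input in Dounce came to -0.11, -0.32 and -0.12, opposite in sign. With at least 10 counts in every library, TRAP of Cell (-) Inhibitors against Tissue was -0.83 and TRAP against Input in Tissue was 0.000728.

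With only the groups compared, with mouse as a replicate block and without the Dounce libraries, TRAP against Input was -0.77, -0.77 and -0.75 in Cell (-) Inhibitors and -0.27, -0.27 and -0.21 in Cell (+) Inhibitors. The count of members called in either direction in TRAP with inhibitors was 62, 72 and 58 under those, against 34. The interaction count was 27, 36 and 33, against 3. No share of all genes is given beside these counts. The fits with mouse as a replicate block moved no other count by over 1.5 times except those given in the report. Leaving out single libraries gave -0.23 (without Dounce-TRAP replicate 181) to 0.24 for TRAP against Input in Dounce, -1.36 to -1.12 for Input of Dounce against Tissue, and 28 to 62 members in the F test across sorts in TRAP. Rpl10a in TRAP of Cell against Tissue came to -0.17, -0.20 and -0.17 under the first 3 settings, opposite in sign. Counts above 2-fold in TRAP of Cell against Tissue came to 32, 36 and 32, against 7, and in TRAP against Input in Cell to 48 each. Of 9490 values of named genes under an alternative, 9005 kept their side of the threshold, 255 no longer passed and 227 newly passed. A further 3 passed in both fits with opposite signs. Direction was compared only where both fits passed, so sign changes of genes that did not pass are not counted. The cause of these shifts was not tested. A denominator without mitochondrially encoded genes was not run, since 0 are listed.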
